A study of Mus musculus with 23 samples.

Results

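Retinoid metabolism genes are described here in the colon of HFD-fed mice colonized with Bacteroides fragilis that carried or lacked an added bile salt hydrolase (bsh) gene. The 9 genes, Stra6, Rdh10, Dhrs9, Dhrs3, Aldh1a1, Aldh1a2, Aldh1a3, Cyp26b1 and Rarb, were taken by symbol from a table of 55449 genes. They were picked by name with earlier results of these libraries known, so the fold changes and adjusted p-values given for them describe these libraries and are no independent evidence. All 9 were found in the table, and every one is annotated as protein coding.

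Retinoids are vitamin A and its derivatives. Retinol reaches cells bound to a plasma carrier and can be taken up through the membrane receptor STRA6. Short-chain dehydrogenases such as RDH10 and DHRS9 oxidize retinol to retinal, DHRS3 reduces retinal back to retinol, and the retinaldehyde dehydrogenases ALDH1A1, ALDH1A2 and ALDH1A3 turn retinal irreversibly into retinoic acid. Retinoic acid acts through nuclear receptors, among them RARB, and is degraded by enzymes of the CYP26 family. In the intestine this pathway is known for its part in epithelial differentiation and in mucosal immunity.

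All mice were male C57BL/6 of the genotype Cdx2Apcf/w, in which a CDX2-driven Cre recombinase, active in the distal gut epithelium, removes 1 floxed copy of the tumor suppressor Apc. They were 6 to 8 weeks old at the start, received an antibiotic treatment and a 60% HFD, and were colonized with B. fragilis 638R holding an empty vector (BF BSHlow, labelled BF638R bsh-) or the bsh vector (BF BSHhigh, labelled BF638R bsh+). Both strains thus carried a vector, and no mice without Cre, without bacteria or on another diet were among the libraries. RNA from colon tissue gave 6 groups and 23 libraries: normal colon after 2 weeks (4 BSHlow, 4 BSHhigh), and non-tumor tissue (4 BSHlow, 4 BSHhigh) and tumors (4 BSHlow, 3 BSHhigh) after 12 weeks. The labels do not say which non-tumor and tumor libraries came from the same mouse, nor that each library was from a separate mouse, so p-values measure the spread between these libraries only. The header of the count table repeats the names of 3 BSHlow tumors over the columns of the 3 BSHhigh tumors; these columns were assigned through another table of the study that holds the same values under BSHhigh tumor names, carry no replicate number, and are called a, b and c here.

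Libraries held 12401388 to 17903008 expected counts (median 15874872). Levels are given as CPM, the usual depth-scaled count, with TMM factors over all 23 libraries. A gene was called where the Benjamini-Hochberg adjusted p of edgeR's quasi-likelihood test was under 0.05 and the log2 fold change exceeded 1 in size. The targeted gene Apc lay between 67.4 and 190 CPM in the 16 libraries of normal and non-tumor tissue and between 8.74 and 28.6 CPM in the 7 tumors. All 7 epithelial markers, among them Epcam and Cdx2, were present in each group, with summed levels of 4510 to 17400 CPM. Marker levels differed between groups. The 6 mature colonocyte markers summed to 11100 to 23200 CPM at 2 weeks and 1760 to 4510 CPM in 12-week non-tumor tissue. They summed to 52.1 to 136 CPM in BSHlow tumors and 155 to 767 CPM in BSHhigh tumors. From 2 weeks to 12-week non-tumor tissue only 2 of the 6 were called, lower, in each strain (8.06% and 7.56% of all genes lower). The median log2 fold change of the 6 was 0.14 in BSHlow and −0.54 in BSHhigh mice. In tumors against non-tumor tissue 6 of 6 were called lower in BSHlow and 5 of 6 in BSHhigh mice (19.5% and 14.8% of all genes). In such bulk samples, fewer cells of a type and less RNA per cell cannot be told apart.

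A promoter of Rarb is shown first because Rarb was counted little outside tumors, and because this promoter holds the element by which the gene is known to answer to retinoic acid. The 250 bases upstream of the RefSeq start site at chr14:16575477-16575726 (GRCm38.p6, minus strand) are printed 5′ to 3′, with capitals for both repeats of the DR5 retinoic acid response element:
Rarb promoter: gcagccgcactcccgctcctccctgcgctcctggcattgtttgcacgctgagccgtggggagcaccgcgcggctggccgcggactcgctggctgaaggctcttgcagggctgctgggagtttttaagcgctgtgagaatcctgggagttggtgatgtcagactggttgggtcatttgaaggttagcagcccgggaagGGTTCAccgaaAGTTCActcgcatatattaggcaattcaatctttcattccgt
The element spans the bases 53 to 37 before the start site on the strand of the gene. The DR5 element was searched on both strands of 300-base windows, 250 before to 50 after each start, and was present in 0.0974% of 32851 windows of all genes. RefSeq windows were matched for 7 of the 9 genes (13 windows), and among these only the Rarb window held it. The TCF/LEF motif ATCAAAG, searched in the same way, was present in 3.73% of all windows and in 1 window of Stra6, at the bases 145 to 139 before the start. A motif match describes letters in a window and says nothing of binding in these samples.

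Stra6 (chr9:58063788-58153996, plus strand, GRCm38), the receptor for retinol bound to its carrier, had the highest level per kilobase of exon of all 9 genes in both tumor groups, at 82.4 ± 28.5 CPM per kb (SD, n = 4) in BSHlow and 47.1 ± 6.75 (SD, n = 3) in BSHhigh tumors. Its CPM in the BSHlow tumors was 485, 331, 394 and 711, and in the BSHhigh tumors 231, 284 and 308. BSHlow non-tumor libraries had 4.96, 11.0, 4.70 and 15.1 CPM, and BSHhigh non-tumor libraries 2.75, 3.92, 13.0 and 6.96 CPM. Every tumor was thus above every non-tumor library, with a log2 fold change of 5.72 ± 0.52 (SE) in BSHlow mice (adjusted p = 4.26e-07) and 5.36 ± 0.53 in BSHhigh mice (adjusted p = 2.29e-06). At 2 weeks Stra6 reached 0.531 CPM at most in BSHlow and 1.62 CPM in BSHhigh colon, and BSHlow library 2 had no count; a count of 0 allows up to 3 counts, or 0.134 to 0.284 CPM depending on the library.

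Rdh10 (chr1:16105774-16133734, plus strand), which catalyses the first oxidation of retinol, was 247, 156, 234 and 191 CPM in the BSHlow tumors and 155, 168 and 152 CPM in the BSHhigh tumors. Non-tumor tissue had 40.4 to 54.2 CPM in BSHlow and 50.2 to 56.3 CPM in BSHhigh mice, without overlap with the tumors. Rdh10 was higher in tumors by 2.14 ± 0.14 on the log2 scale in BSHlow (adjusted p = 3.21e-08) and by 1.55 ± 0.15 in BSHhigh mice (adjusted p = 1.63e-06). Its 2-week level was 30.0 to 43.4 CPM over both strains. In BSHhigh mice every non-tumor library was above every 2-week library, though by less than the fold threshold (log2 fold change 0.43, adjusted p = 0.00857 by edgeR). In BSHlow mice the 2 groups overlapped (0.27, adjusted p = 0.0774). Per kilobase of exon Rdh10 ranked first among the 9 genes in both non-tumor groups.

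Dhrs9 (chr2:69380445-69404533, plus strand), a dehydrogenase of retinol and of 3α-hydroxysteroids, did not follow the tumor and non-tumor tissues but varied within them. Its CPM was 9.78, 4.81, 5.32 and 4.77 in BSHlow non-tumor tissue, and 53.8, 7.59, 6.79 and 20.3 in BSHhigh non-tumor tissue. BSHlow tumors had 3.58, 1.49, 5.10 and 3.91 CPM, whereas BSHhigh tumors a, b and c had 68.2, 37.6 and 18.2 CPM. The 3 BSHhigh tumors were all above the 4 BSHlow tumors. Tumor and non-tumor tissue did not differ beyond the threshold in either strain (log2 fold change −0.81 ± 0.64, adjusted p = 0.277, and 0.90 ± 0.62, adjusted p = 0.236); without BSHhigh non-tumor library 1 the second value was 1.83 (adjusted p = 0.0125).

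Dhrs3 (chr4:144892827-144928209, plus strand), which reduces retinal back to retinol, had group means that lay close together for its level. They ran from 22.5 ± 4.75 CPM (SD, n = 4) in BSHlow non-tumor tissue to 41.3 ± 7.47 CPM (SD, n = 4) in 2-week BSHhigh colon, and each group overlapped its neighbour in this order. Yet every 2-week library, at 30.2 CPM or more, was above every non-tumor library, at 27.1 CPM or less. Tumors had 17.2 to 30.4 CPM in BSHlow and 23.7 to 30.4 CPM in BSHhigh mice, next to 16.5 to 27 and 20.6 to 27.1 CPM in non-tumor tissue. The 12-week non-tumor level was below the 2-week level by less than the fold threshold, at −0.79 ± 0.17 in BSHlow (adjusted p = 0.00132) and −0.81 ± 0.17 in BSHhigh mice (adjusted p = 0.00108).

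**Figure D1:**
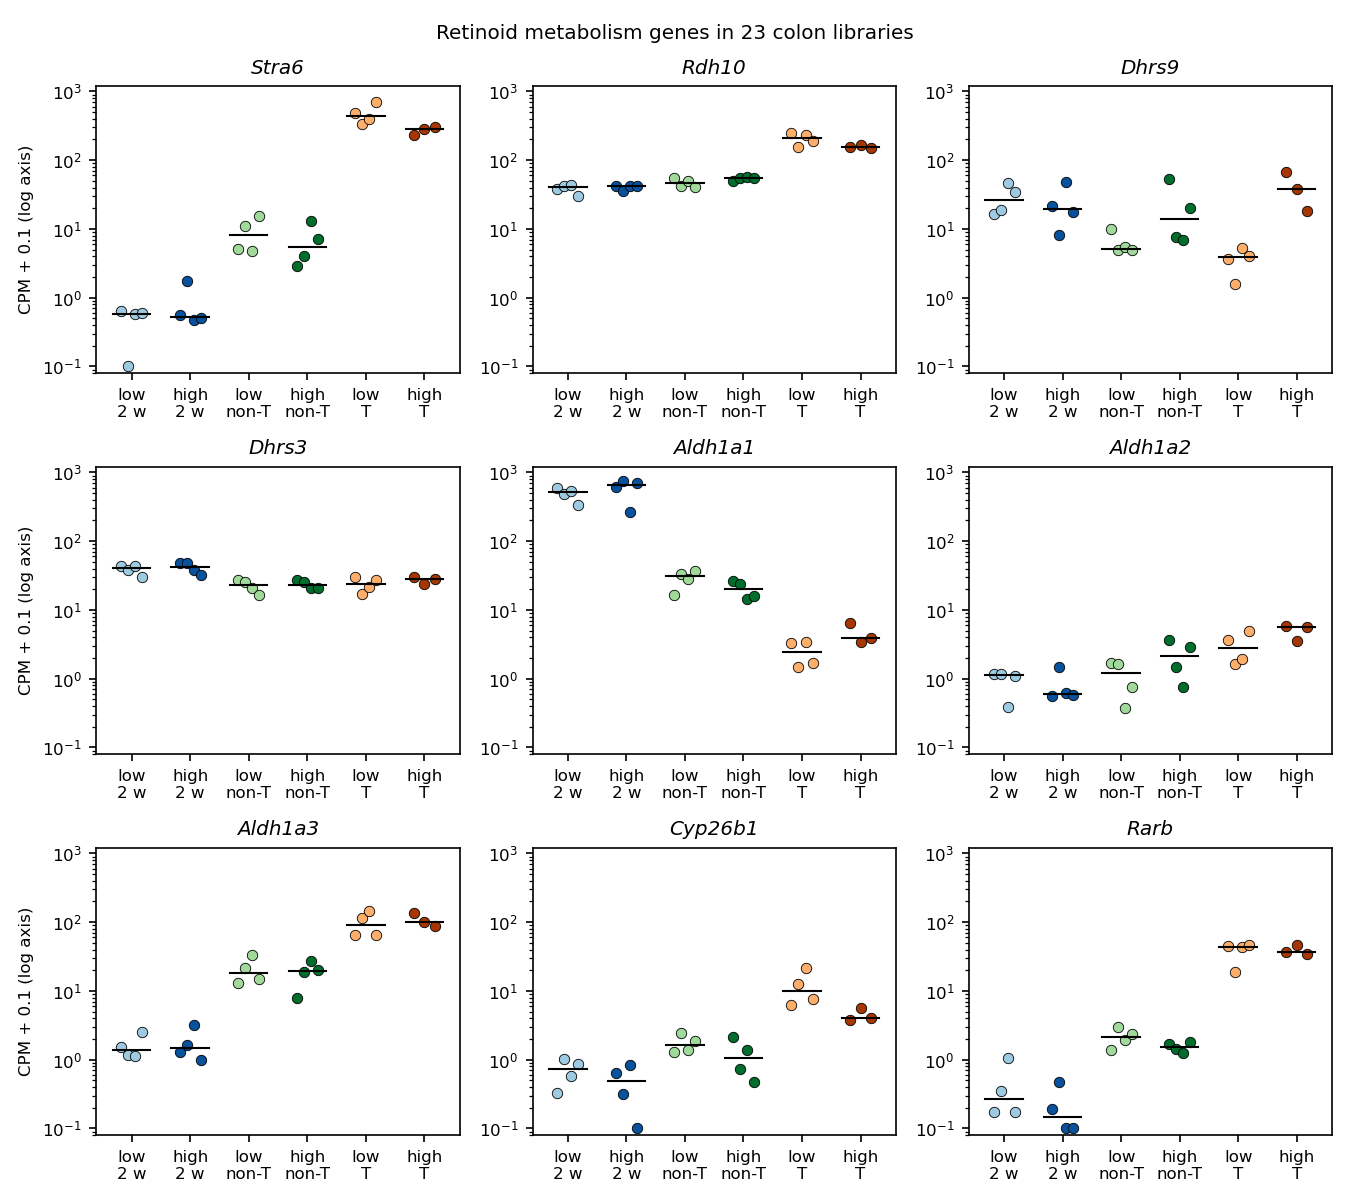
CPM + 0.1 on a log axis of each of the 9 genes, 1 point for each library and a line at the group median, in normal colon after 2 weeks (2 w), non-tumor tissue (non-T) and tumors (T) after 12 weeks of BSHlow (low) and BSHhigh (high) mice. Stra6, Rdh10, Aldh1a3, Cyp26b1 and Rarb sit above non-tumor tissue in all 7 tumors, Aldh1a1 sits below it, and Dhrs9 separates the 3 BSHhigh tumors from the 4 BSHlow tumors.

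Of the retinaldehyde dehydrogenases, Aldh1a1 (chr19:20492715-20643465, plus strand) and Aldh1a3 (chr7:66390890-66427517, minus strand) ran in opposite directions over the tissues. Aldh1a1 was at 590, 491, 534 and 331 CPM in 2-week BSHlow colon and at 610, 749, 270 and 691 CPM in 2-week BSHhigh colon. Non-tumor tissue at 12 weeks had 16.4, 32.7, 28.4 and 36.6 CPM in BSHlow and 26.4, 24.0, 14.5 and 15.9 CPM in BSHhigh mice. In tumors it was down to 3.19, 1.38, 3.29 and 1.56 CPM in BSHlow and 6.26, 3.30 and 3.86 CPM in BSHhigh mice. These 3 tissue levels did not overlap. The log2 fold change from non-tumor tissue to tumor was −3.61 ± 0.36 in BSHlow mice (adjusted p = 1.02e-06) and −2.19 ± 0.38 in BSHhigh mice (adjusted p = 0.000234). Counts of Aldh1a1, and of its close copy Aldh1a7, were not whole numbers in 9 of 23 libraries each; RSEM divides reads that fit more than 1 gene, so the split between these copies is uncertain.

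Aldh1a3 was at 65.4, 116, 145 and 65.9 CPM in BSHlow tumors and at 138, 102 and 87.2 CPM in BSHhigh tumors. Non-tumor tissue had 13.0 to 32.8 CPM and 7.68 to 27.4 CPM, and no 2-week library exceeded 3.04 CPM. Tumors were above non-tumor tissue by 2.24 ± 0.39 on the log2 scale (adjusted p = 0.000151) in BSHlow and by 2.55 ± 0.41 (adjusted p = 0.000123) in BSHhigh mice. Set against each other per kilobase of exon, Aldh1a1 made up 99.2% ± 0.464 (SD, n = 4) of the summed level of the 3 retinaldehyde dehydrogenases in 2-week BSHlow colon and 54.1% ± 10.3 in BSHlow non-tumor tissue, but 2.24% ± 1.21 in BSHlow tumors. Aldh1a3 made up 90.9% ± 5.75 (SD, n = 4) in BSHlow tumors and 88.4% ± 2.87 (SD, n = 3) in BSHhigh tumors. The leading transcript of the 3 thus differed between 2-week colon and tumors in both strains.

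Aldh1a2 (chr9:71215789-71296243, plus strand), known from mesenchymal and dendritic cells, was the lowest of the 3 per kilobase of exon in non-tumor tissue, at 0.444 ± 0.286 CPM per kb (SD, n = 4) in BSHlow and 0.924 ± 0.58 in BSHhigh mice. It was at 3.53, 1.54, 1.86 and 4.79 CPM in BSHlow tumors and at 5.79, 3.39 and 5.58 CPM in BSHhigh tumors, against 0.273 to 1.56 and 0.666 to 3.56 CPM in non-tumor tissue. The ranges of tumor and non-tumor tissue touched in both strains. The BSHlow difference passed the threshold (1.53 ± 0.58, adjusted p = 0.0307) and the BSHhigh difference did not (1.23 ± 0.58, adjusted p = 0.0874); whether these 2 differ is the interaction, at −0.30 ± 0.81 (adjusted p = 0.971). The BSHlow call was lost in 4 of 8 fits that each left out 1 library (replicate 3 or 4 of non-tumor tissue, replicate 1 or 4 of tumors), with log2 fold changes of 1.16 to 1.41. The BSHhigh difference was called by limma-voom (adjusted p = 0.031) and without BSHhigh non-tumor library 1 (1.62, adjusted p = 0.0459). The 6 dendritic cell markers, all detected, summed to a median of 24.8 CPM in BSHlow and 26.8 CPM in BSHhigh non-tumor tissue against 20.4 and 35.0 CPM in tumors, with overlapping ranges, and the 5 macrophage markers to 87.9 and 82.9 CPM against 97.4 and 112 CPM. The 7 fibroblast markers, all detected, summed to 338 to 3400 CPM in BSHlow and 713 to 1330 CPM in BSHhigh non-tumor tissue, against 1510 to 3460 and 1880 to 2250 CPM in tumors, and the 4 endothelial markers to 40.2 to 89.1 CPM in non-tumor tissue and 122 to 146 CPM in tumors of both strains. Fibroblast sums thus overlapped in BSHlow but not in BSHhigh mice, and endothelial sums in neither. The markers behind these sums did not all move alike. Of the 7 fibroblast markers 2 were called higher and 2 lower in BSHlow mice, beside 16.7% and 19.5% of all genes. In BSHhigh mice 3 were called higher and 2 lower, beside 14.6% and 14.8% of all genes. Of the 4 endothelial markers 1 was called, higher, in each strain. Of the 6 dendritic cell markers 2 were called in BSHlow mice, both lower, and 0 in BSHhigh mice. Of the 5 macrophage markers 1 was called lower in each strain, and 1 was called higher in BSHhigh mice. The part of these cells in the result was not tested.

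**Figure D2:**
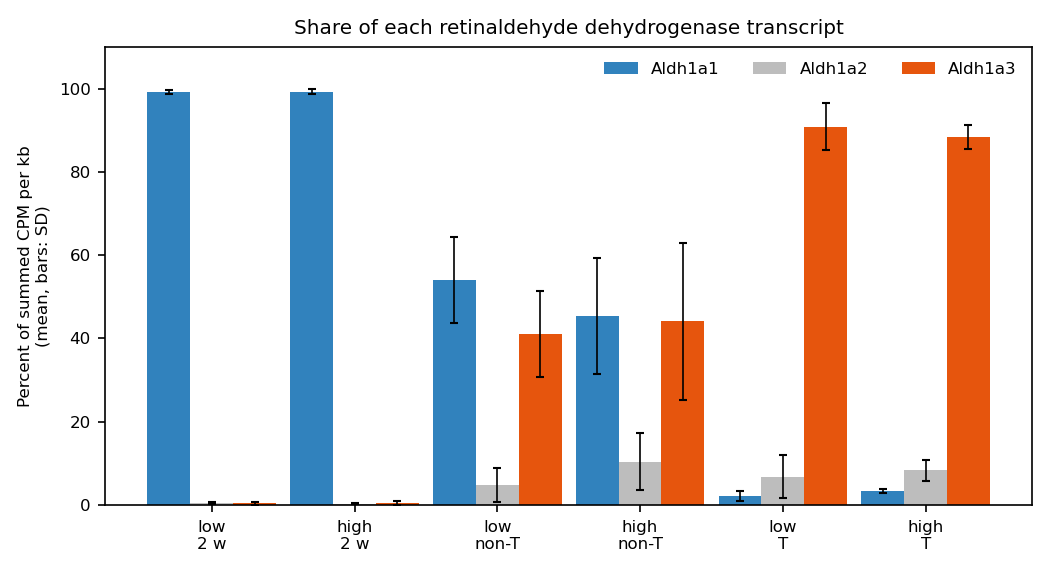
Mean percent (bars show SD) of the summed CPM per kilobase of exon of Aldh1a1, Aldh1a2 and Aldh1a3 that each makes up in the 6 groups; low and high stand for BSHlow and BSHhigh, T for tumor. Aldh1a1 holds 99.2% and 99.3% in the 2-week groups, and Aldh1a3 holds 90.9% and 88.4% in the tumor groups.

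Cyp26b1 (chr6:84571414-84593908, minus strand), which degrades retinoic acid, was low outside tumors, with at most 2.35 CPM in non-tumor tissue and 0.917 CPM at 2 weeks. BSHlow tumors had 6.08, 12.4, 21.8 and 7.52 CPM and BSHhigh tumors 3.62, 5.58 and 3.96 CPM. All 7 tumors were above all 8 non-tumor libraries, with log2 fold changes of 2.83 ± 0.48 in BSHlow (adjusted p = 0.000136) and 2.02 ± 0.51 in BSHhigh mice (adjusted p = 0.00388). The 5 squamous epithelium markers also summed to more in tumors, 41.7 to 174 CPM in BSHlow and 24.6 to 36.5 CPM in BSHhigh mice against 1.37 to 3.27 CPM in non-tumor tissue, although the defining markers Krt5 and Trp63 had mean levels under 0.1 CPM in both tumor groups. The BSHlow tumors with the highest sums, replicate 2 (174 CPM) and replicate 3 (141 CPM), were also the BSHlow tumors with the most Cyp26b1 and Aldh1a3. Over both strains this did not hold for Aldh1a3. BSHhigh tumor a had 138 CPM of it, above the 116 CPM of BSHlow replicate 2, with a squamous sum of 35.7 CPM. Whether squamous cells were present, and their part in the result, was not tested.

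Rarb (chr14:16430839-16819156, minus strand), a retinoic acid receptor, was at 44.3, 18.8, 43.3 and 45.9 CPM in BSHlow tumors and at 37.0, 46.1 and 34.8 CPM in BSHhigh tumors. The promoter printed above lies inside the annotated gene, so it is not the only annotated start. Counts were of the whole gene, and the use of this promoter was not measured. BSHlow non-tumor libraries had 1.26, 2.86, 1.84 and 2.26 CPM and BSHhigh non-tumor libraries 1.56, 1.31, 1.15 and 1.72 CPM. The lowest tumor was well above the highest non-tumor library, and the log2 fold changes were 4.18 ± 0.30 in BSHlow mice (adjusted p = 6.01e-08) and 4.77 ± 0.32 in BSHhigh mice (adjusted p = 1.69e-07). At 2 weeks Rarb was near the limit of detection, with 15 counts over the 4 BSHlow and 6 counts over the 4 BSHhigh libraries, and no count in BSHhigh libraries 3 and 4. Exons of Rarb overlap those of Top2b and Gm48162 on the opposite strand, and whether counting used strand is not given in the sources used here, so its level is uncertain to that extent.

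Across the 9 genes, tumors thus held more of the uptake receptor, of RDH10, of ALDH1A3, of CYP26B1 and of RARB transcripts than non-tumor tissue of the same strain, and less Aldh1a1. Of the 9 genes, 7 were called between BSHlow tumors and non-tumor tissue, 6 higher and 1 lower, where 36.2% of all 16454 genes tested were called (16.7% higher, 19.5% lower). In BSHhigh mice 6 of 9 were called, 5 higher and 1 lower, where 29.4% of all genes were called (14.6% higher, 14.8% lower). The groups did not overlap for 6 of 9 genes in each strain, as was so for 56.3% of all genes in BSHlow and 60.4% in BSHhigh mice. The median log2 fold change of the 9 genes was 2.14 in BSHlow and 1.55 in BSHhigh mice, beside a median of 0.04 over all genes tested in each. Other lists moved between these tissues as well: the 7 smooth muscle markers summed to 1540 to 8540 CPM in non-tumor tissue and 120 to 347 CPM in tumors, and the 6 goblet cell markers to 11900 to 32500 CPM against 50.1 to 4220 CPM. Their part in the differences of the 9 genes was not tested.

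**Figure D3:**
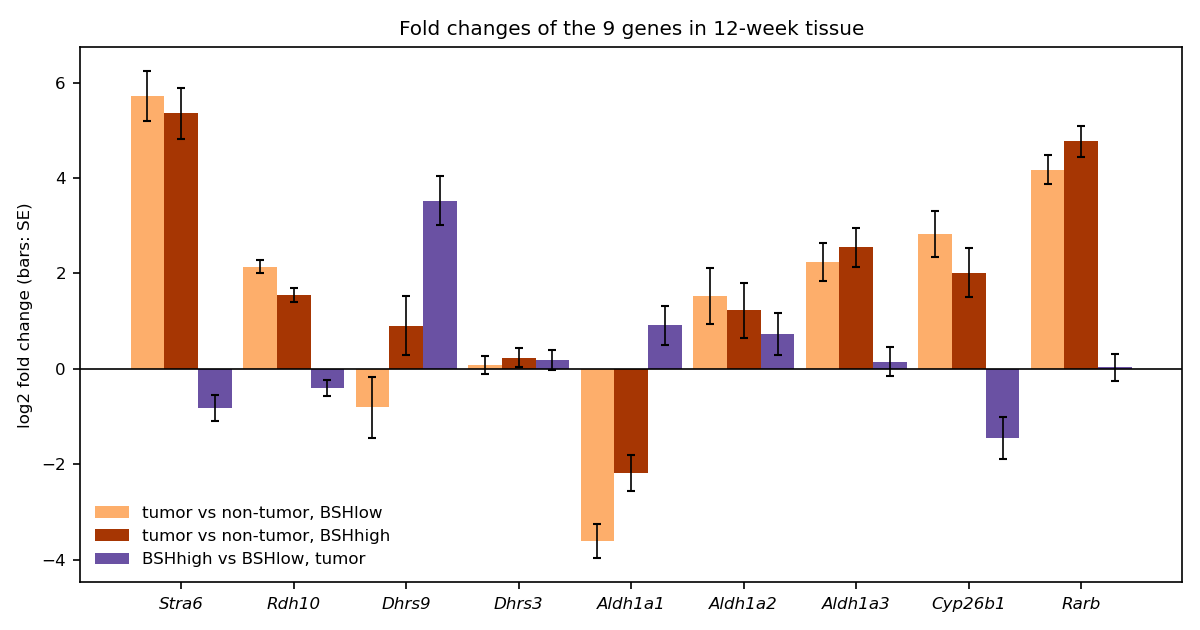
Log2 fold change of the 9 genes (bars, with SE) from edgeR's quasi-likelihood fit for tumors against non-tumor tissue in BSHlow and BSHhigh mice and for BSHhigh against BSHlow tumors. Stra6 and Rarb have the tallest bars between tissues, 5.72 and 4.18 in BSHlow mice, and Dhrs9 has the tallest bar between strains, 3.53.

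The comparison of BF BSHhigh with BF BSHlow asks what the added bsh gene changed within a tissue. In tumors Dhrs9 was the 1 gene of the 9 that was called, at a log2 fold change of 3.53 ± 0.51 (SE, 11.6 times; adjusted p = 0.0406), where 0.476% of 15325 genes were called. Without any 1 of 6 of the 7 tumors the call was lost (BSHlow replicates 1 to 4, BSHhigh a and b), with log2 fold changes of 2.96 to 3.76 and adjusted p of 0.0825 to 0.12; without BSHhigh tumor c it was 3.89 (adjusted p = 0.0125). By limma-voom the adjusted p was 0.113 and by DESeq2 1.16e-10. Markers of differentiated epithelium were also higher in the BSHhigh tumors and in the same order over them, with 2 of 6 goblet cell and 2 of 6 colonocyte markers called. The goblet cell markers, all detected, summed to 4220, 1240 and 498 CPM in a, b and c, against 50.1 to 112 CPM in BSHlow tumors, and the colonocyte markers to 767, 245 and 155 CPM, against 52.1 to 136 CPM with Aqp8 under 0.1 CPM. The 5 T cell markers, all detected, summed to 19.8 to 30.9 CPM in BSHhigh and 1.64 to 12.6 CPM in BSHlow tumors. Among the non-tumor libraries, BSHhigh replicate 1 had both the most Dhrs9, 53.8 CPM, and the largest goblet cell sum, 32500 CPM. BSHhigh replicate 2, with a sum of 20100 CPM, had 7.59 CPM of Dhrs9, against 20.3 CPM in replicate 4 with 17700 CPM. Between tissues the 2 did not run together. BSHlow non-tumor tissue had sums of 11900 to 16400 CPM but only 4.77 to 9.78 CPM of Dhrs9, less than any BSHhigh tumor. The part of these cells in the Dhrs9 result was not tested.

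**Figure D4:**
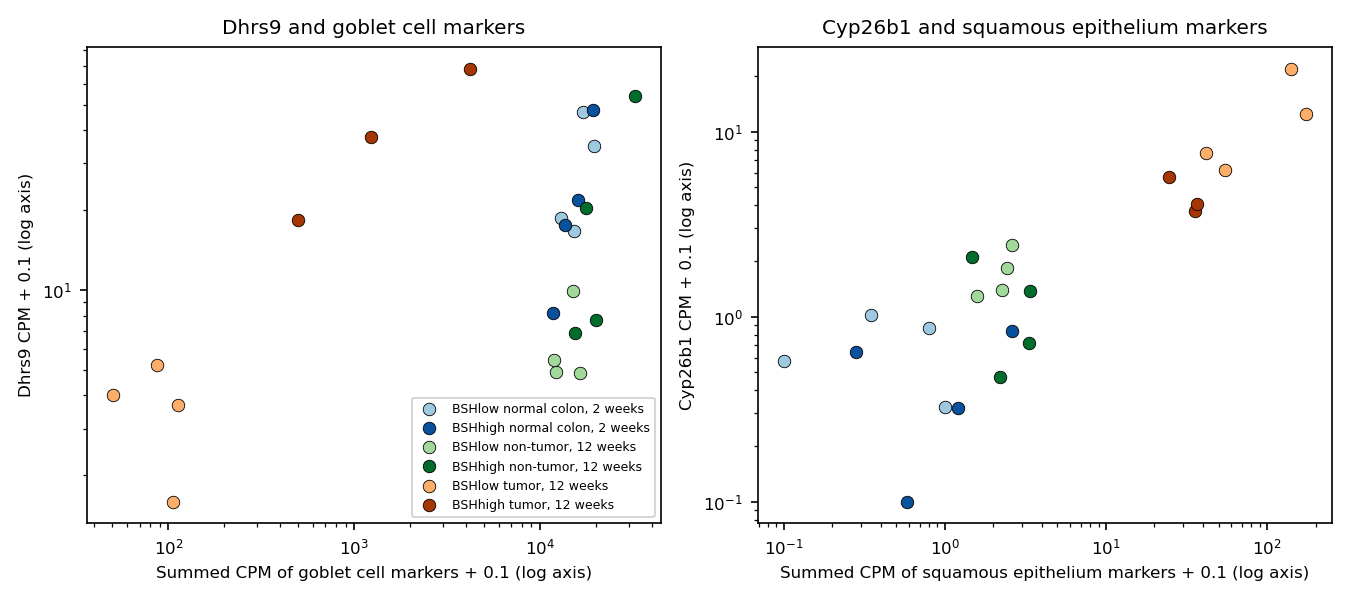
Each point is 1 of the 23 libraries, on log axes: left, Dhrs9 CPM against the summed CPM of 6 goblet cell markers; right, Cyp26b1 CPM against the summed CPM of 5 squamous epithelium markers, 0.1 added to each value. On the left, the 3 BSHhigh tumors lie above and to the right of the 4 BSHlow tumors. The 4 BSHlow non-tumor libraries lie further right but below the BSHhigh tumors. On the right, the 2 BSHlow tumors with the largest squamous sums, 141 and 174 CPM, have the most Cyp26b1.

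Of the other genes, Stra6, Cyp26b1 and Aldh1a1 also had groups that did not overlap between the tumors of both strains; with Dhrs9 this made 4 of 9, where 12.2% of all 16740 genes had groups that did not overlap. The log2 fold change of Stra6 was −0.82 ± 0.27 (adjusted p = 0.239) and that of Cyp26b1 −1.45 ± 0.44 (adjusted p = 0.216), and Aldh1a1 was higher by 0.91 ± 0.41 (adjusted p = 0.411), with nearest libraries of 3.30 and 3.29 CPM. None of these passed the threshold in edgeR, and DESeq2 called Cyp26b1 (adjusted p = 0.0267). For Rarb (0.03 ± 0.29, adjusted p = 0.984) and Aldh1a3 (0.15 ± 0.30, adjusted p = 0.877) the difference was smaller than its error.

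Outside tumors none of the genes was called between the strains. In non-tumor tissue 0 of 9 genes passed edgeR's test (0 of all 14933 genes, 0%; 1 of the 9 at an unadjusted p under 0.05; 0 of the 9 by DESeq2 or limma-voom, where DESeq2 called 53 of all genes). The gene with that p was Dhrs9, at 1.83 ± 0.65 (adjusted p = 0.469) and with overlapping groups. In 2-week colon 6 of 9 genes passed the filter on low counts, all but Cyp26b1, Rarb and Stra6, and 0 of these were called (0.00727% of 13752 genes; 0 at an unadjusted p under 0.05; 0 by DESeq2 or limma-voom), with log2 fold changes from −0.30 to 0.24. A strain effect that differed between tumor and non-tumor tissue was found for 0 of 9 genes (0.978% of all genes; 2 at an unadjusted p under 0.05, Rdh10 and Aldh1a1; 0 by DESeq2 or limma-voom). For Dhrs9 this interaction was 1.71 ± 0.89 (adjusted p = 0.595). The share of all genes at an unadjusted p under 0.05 was not worked out, so the counts at that p have no background to be read against.

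Between 2-week colon and 12-week non-tumor tissue, Aldh1a1 was lower and Aldh1a3, Rarb and Stra6 were higher in both strains. In BSHlow mice 5 of 9 genes were called (25.0% of 15532 genes; 17.0% higher, 8.06% lower): Aldh1a1 at −4.10 ± 0.34 (adjusted p = 4.27e-07), Dhrs9 at −2.25 ± 0.65 (adjusted p = 0.00977), Aldh1a3 at 3.73 ± 0.47 (adjusted p = 1.53e-05), Rarb at 2.66 ± 0.70 (adjusted p = 0.0054) and Stra6 at 4.53 ± 0.73 (adjusted p = 0.000133). In BSHhigh mice 5 of 9 were called (24.4% of all genes; 16.8% higher, 7.56% lower), with Aldh1a1 at −4.83 ± 0.35 (adjusted p = 1.65e-07), Stra6 at 3.21 ± 0.67 (adjusted p = 0.00107), Aldh1a3 at 3.47 ± 0.46 (adjusted p = 2.55e-05), Rarb at 3.52 ± 0.80 (adjusted p = 0.00207) from only 6 counts at 2 weeks, and Aldh1a2 in place of Dhrs9. One 2-week library held 10 of the 15 BSHlow counts of Rarb (library 3) and one held 5 of the 6 BSHhigh counts (library 2); without it the fold change of Rarb was 3.91 in BSHlow and 5.32 in BSHhigh mice. Without the same BSHhigh library that of Stra6 was 4.01, and all 3 calls were kept. That Aldh1a2 call (1.53 ± 0.61, adjusted p = 0.0485) was lost without a filter on low counts (adjusted p = 0.0681), by limma-voom (adjusted p = 0.105), with the replicate number as a block (adjusted p = 0.111), and when any 1 of 5 of the 8 libraries was left out (non-tumor 1 or 4, 2-week 1, 3 or 4; adjusted p = 0.105 to 0.167). Dhrs9 ranged from 16.6 to 46.8 CPM at 2 weeks in BSHlow and from 8.09 to 47.7 CPM in BSHhigh colon.

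Time was not the only thing that differed between these tissues. Homeobox genes that mark position along the gut, named here after their values were seen, differed throughout: Hoxb6 was at 20.3 to 54.0 CPM in the 8 libraries of 2-week colon and at most 0.63 CPM in the 8 of non-tumor tissue, whereas Hoxd13 was at most 0.515 CPM at 2 weeks and 7.18 to 153 CPM in non-tumor tissue. Hoxb13 was at 1.5 to 60.5 CPM at 2 weeks and 376 to 562 CPM in non-tumor tissue. The smooth muscle markers summed to 7.17 to 211 CPM at 2 weeks and to 1540 to 8540 CPM in non-tumor tissue, and the fibroblast markers to 53.7 to 253 CPM and 338 to 3400 CPM. For the levels of Aldh1a1 and the other genes, time, age, diet length, any library batch, sampled position and tissue makeup cannot be told apart.

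A further 58 genes of the retinoid pathway, listed from general knowledge of retinoid carriers, oxidoreductases, catabolic enzymes, receptors and inducible genes, were read in the same fits. This list too was chosen with earlier results of these data known, so its counts describe these libraries only. Between BSHlow tumors and non-tumor tissue 46 were tested and 26 were called, 5 higher and 21 lower (56.5% of those tested, beside 36.2% of all genes), with a median log2 fold change of −0.53 beside 0.04 over all genes. In BSHhigh mice 17 of 46 were called, 6 higher and 11 lower (37.0% of those tested, beside 29.4% of all genes, 14.6% higher and 14.8% lower), with a median of −0.41. The list thus held more lower than higher calls in both strains, whereas the 9 genes picked by name held more higher calls.

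Of the 21 lower calls in BSHlow mice 13 were genes of transport and storage or oxidoreductases, lists that held 12 and 13 of the 46 genes tested. Adh1, an alcohol dehydrogenase that oxidizes retinol, was at 1220 to 1370 CPM in BSHlow non-tumor tissue and 3.49 to 11.2 CPM in BSHlow tumors (−7.33 ± 0.54, adjusted p = 6.84e-08). Lower as well were Rdh16, a retinol dehydrogenase (−5.20 ± 0.36, adjusted p = 4.05e-08), Rbp2, the cellular retinol-binding protein of enterocytes (−5.84 ± 0.53, adjusted p = 3.77e-07), and Aldh1a7 (−6.56 ± 0.67, adjusted p = 1.16e-06). Rdh14 fell as well (−1.13 ± 0.13, adjusted p = 3.21e-06), and of the retinoic acid inducible genes Cd38 fell by 2.93 (SE 0.29, adjusted p = 9.48e-07). The 5 higher calls included Rdh1 (5.19 ± 0.64, adjusted p = 7.59e-06), Rdh9 and the receptor Rarg (1.62 ± 0.19, adjusted p = 3.75e-06). Counts of Rdh1, Rdh9 and Rdh16, close copies of each other, were not whole numbers in 22, 23 and 23 libraries, so their split is uncertain.

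By role, 4 of 10 receptors and cofactors tested were called between BSHlow tumors and non-tumor tissue, a share near the 36.2% of all genes. The coactivator Ncoa1 fell by 1.80 on the log2 scale (SE 0.11, adjusted p = 2.62e-08) and the shared partner receptor Rxra fell by 1.21 (SE 0.10, adjusted p = 1.84e-07). Of the transport, storage and carotenoid cleavage genes 7 of 12 were called (1 higher, 6 lower), of the retinol and retinal oxidoreductases 9 of 13 (2 higher, 7 lower), and of the retinoic acid inducible genes 8 of 14 (2 higher, 6 lower), beside 16.7% of all genes higher and 19.5% lower. Neither Cyp26a1 nor Cyp26c1, the other 2 enzymes of retinoic acid breakdown, passed the filter on low counts in any comparison. Among the 10 genes with the smallest adjusted p in BSHhigh mice, Ncoa1, Rdh16, Adh1, Rbp2, Aldh1a7 and Sdr16c6 were lower and Rdh1, Rarg and Tgm2 higher, with log2 fold changes from −4.17 for Sdr16c6 to 4.56 for Rdh1.

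**Figure D5:**
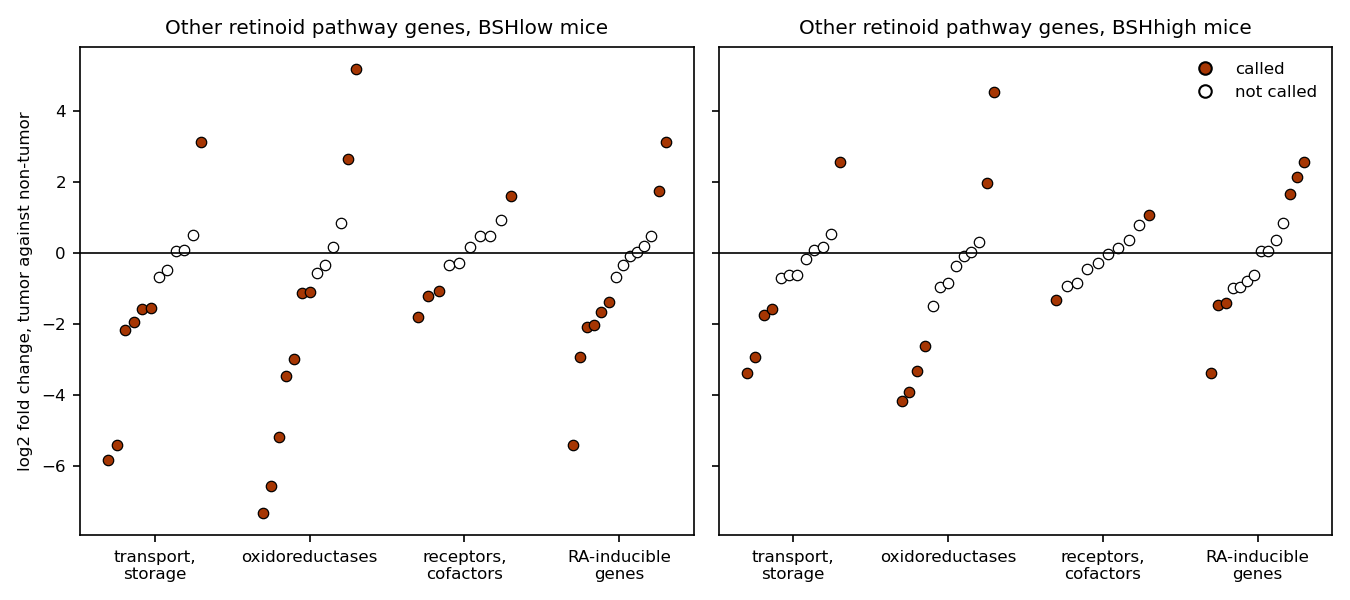
Log2 fold change of the other retinoid pathway genes that were tested, tumors against non-tumor tissue, by role in BSHlow and BSHhigh mice; 1 point for each gene, filled where it was called, and a gene of 2 roles shown in both. Adh1 is the lowest point in BSHlow mice at −7.33, and Rdh1 the highest at 5.19.

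Between the strains 0 of 42 other pathway genes were called in tumors by edgeR, beside 0.476% of all genes. DESeq2 called 7, where it called 534 of all genes, and limma-voom called 0. In non-tumor tissue 0 of 44 were called, beside 0% of all genes, and in 2-week colon 0 of 39, beside 0.00727%. DESeq2 and limma-voom called 0 in both. An unadjusted p of edgeR under 0.05 was found for 15 of 42, 4 of 44 and 4 of 39. The share of all genes under that p was not worked out, so these counts have no background to be read against. The interaction was called for 2 of 46, Adh1 and Rdh16, beside 0.978% of all genes. It was also called, higher, for 5 of 6 mature colonocyte and 4 of 6 goblet cell markers. Adh1 was at 137, 71.2 and 21.5 CPM in BSHhigh tumors a, b and c, above the BSHlow tumors, while non-tumor tissue of both strains had 1010 to 1370 CPM; its interaction was 3.41 ± 0.61 (adjusted p = 0.0177). Rdh16 was at 23.3, 17.3 and 6.24 CPM in BSHhigh tumors and 1.81 to 3.48 CPM in BSHlow tumors, with an interaction of 2.59 ± 0.45 (adjusted p = 0.0167). Both ran in the same order over a, b and c as Dhrs9 and the goblet cell sum, and both calls were lost by limma-voom (adjusted p = 0.126 and 0.142).

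Between 2-week colon and 12-week non-tumor tissue 16 of 45 other genes were called in BSHlow mice (11 higher, 5 lower; 35.6%, beside 25.0% of all genes) and 21 of 45 in BSHhigh mice (14 higher, 7 lower; 46.7%, beside 24.4% of all genes). Higher calls outnumbered lower calls over all genes too, at 17.0% against 8.06% in BSHlow and 16.8% against 7.56% in BSHhigh mice. Genes lower at 12 weeks in BSHlow mice included Isx, the intestinal repressor of carotenoid uptake (−6 ± 0.62, adjusted p = 2.61e-06), Lrat, which stores retinol as esters (−3.38 ± 0.54, adjusted p = 0.000122), Stra6l (−2.18 ± 0.25, adjusted p = 6.82e-06), Aldh1a7 and Rdh1. Adh1 was higher (3.33 ± 0.23, adjusted p = 7.95e-08), as were Rdh16, Ttr (4.18 ± 0.50, adjusted p = 1.09e-05), Meis1 and Meis2. Isx was at 112 to 198 CPM in 2-week BSHlow colon and 0.273 to 4.96 CPM in BSHlow non-tumor tissue. In BSHhigh mice the 10 genes with the smallest adjusted p were Adh1, Ttr, Meis2, Rdh16 and Sdr16c6, all higher, and Aldh1a7, Stra6l, Isx, Dgat1 and Lrat, all lower.

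The genes whose log2 CPM ran most like each of the 9 over the 23 libraries are given as a description, since the libraries fall into 6 groups that set most of each correlation. Stra6 was most like Robo1 (r = 0.988) and Slc7a11 (0.987), Rarb most like Selenon (0.983) and Cxcl14 (0.977), Rdh10 most like Gm7514 (0.977) and Dnaja4 (0.976), and Aldh1a3 most like Vtcn1 (0.986) and Ppat (0.981). Aldh1a1 was most like Hkdc1 (0.99) and Trpm4 (0.988), Dhrs3 most like Slc2a6 (0.901) and Matk (0.893), and Cyp26b1 most like Srsf9 (0.933) and Dusp4 (0.929). Aldh1a2 ran most like Fcgr4 (0.883) and Fpr1 (0.87), and Dhrs9 most like Plet1 (0.791) and Retnlb (0.752). Among the 9 genes the closest partner of Stra6 was Rarb, at 0.961. After the mean of each group was subtracted, the pairs with the highest and lowest correlation were Dhrs3 with Aldh1a2 (0.47) and Aldh1a2 with Aldh1a3 (−0.41).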

How the data were processed

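Colon RNA of 23 libraries was sequenced (TruSeq stranded libraries, of total RNA per the labels and of mRNA per the methods of the study). The authors used Cutadapt for trimming, STAR for alignment (mm10) and RSEM for quantification; versions and the annotation are not given in the sources used here. The deposited values are expected counts, of which 4.24% were not whole; they were rounded. 1 row was dropped because a cell held text. All 55449 gene identifiers matched GENCODE M21, which gave positions and exon lengths (all exons merged).

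Groups came from the labels, and the 3 BSHhigh tumor columns were assigned as described with the samples. Counts were tested with edgeR 4.0.16 (R 4.3.3; filterByExpr, TMM, quasi-likelihood F test, Benjamini-Hochberg over all genes of a fit; called under 0.05 with an absolute log2 fold change over 1). The SE is the absolute log2 fold change over the square root of F. Strain comparisons used the libraries compared, tumor comparisons and the interaction all 12-week libraries, and time comparisons all normal and non-tumor libraries. Log2 CPM for correlations used a prior count of 2. Alternatives were DESeq2 1.42.0, limma-voom 3.58.1, RLE and upper-quartile scaling, no filter, a fit of all 23 libraries, only the groups compared, the replicate number as a block, and omission of every library in turn. Fits of only the groups compared were tested on simulated counts, with the same spread for every gene and changes only in genes of higher counts. Changes in genes of low counts, the spread of these libraries and the interaction were not simulated. No 2 replicates agreed within sampling noise (33 pairs, chi-square per degree of freedom at least 16.6). Promoter windows came from RefSeq (GRCm38.p6).

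The 9 genes and all lists were chosen with earlier results of these data known. All 9 are named; of the other pathway genes those called were named, up to 10 by smallest adjusted p, with any list of 5 or fewer in full, and the 2 genes most correlated with each of the 9. The Homeobox genes, and Rdh9 in BSHlow mice, were chosen after their values were seen. Some pathway genes that this rule names are not reported here, but all are included in the counts.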

Additional observations from a re-analysis of the deposited data

Results flagged for a closer look

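Within groups of 4 libraries, 6 of 45 tests over the 9 genes found 1 library far from the other 3, where chance gives about 1 in 20. Dhrs9 was at 9.78 CPM in BSHlow non-tumor library 1, and Rarb was at 18.8 CPM in BSHlow tumor library 2, below the 43.3 to 45.9 CPM of the other BSHlow tumors. The other 4 were at low counts in 2-week colon: Aldh1a2 at 0.284 CPM in BSHlow library 3 and 1.40 CPM in BSHhigh library 2, and Stra6 with no count (0 CPM) in BSHlow library 2 and 1.62 CPM in BSHhigh library 2.

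The effect of BSHhigh differed between tumor and non-tumor tissue by the interaction test for 2 other pathway genes, Rdh16 (2.59 on the log2 scale, adjusted p = 0.0167) and Adh1 (3.41, adjusted p = 0.0177, edgeR). Both interactions stayed positive in every alternative run, at 2.2 to 2.98 for Rdh16 and 2.7 to 3.87 for Adh1. By edgeR the interaction was also called, higher, for 5 of 6 mature colonocyte and 4 of 6 goblet cell markers, beside 0.978% of all genes. The part of these cells was not tested. The calls of Rdh16 and Adh1 were both lost by limma-voom.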

How the results depend on the processing

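The comparisons between strains depended on the processing. In tumors 1 of the 9 genes was called by edgeR, 2 by DESeq2 and 0 by limma-voom, and 0 to 1 when a library was left out; of the other pathway genes 0 were called by edgeR, 7 by DESeq2, 4 without a filter, 7 in a fit of all 23 libraries and 0 to 3 when a library was left out (3 without BSHhigh tumor c). Over all genes the 73 calls became 534 by DESeq2, 41 by limma-voom, 320 without a filter and 578 in a fit of all libraries, and 0 to 240 when a library was left out (240 without BSHhigh tumor c). In non-tumor tissue 0 calls over all genes became 53 by DESeq2, and in 2-week colon 1 call became 28 by DESeq2, 5 without a filter and 0 to 37 when a library was left out (37 without BSHlow library 4). The interaction over all genes went from 161 calls to 386 by DESeq2, 0 by limma-voom, 263 in a fit of all libraries and at most 335 when a library was left out (without BSHhigh tumor c). The interaction of the other pathway genes went from 2 calls to 5 by DESeq2, 0 by limma-voom, 4 in a fit of all libraries and 2 to 5 when a library was left out (5 without BSHhigh tumor c). The cause was not tested. The counts for tumors against non-tumor tissue and for 12 against 2 weeks stayed within 1.5 times. Depth limits the 2-week values of Cyp26b1, Rarb and Stra6, which rest on 6 to 37 counts a group.

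Changes of sign were found only where no call had been made and a library was left out. For BSHhigh against BSHlow, the log2 fold change then ran from −0.06 to 0.39 for Aldh1a3 and −0.19 to 0.13 for Rarb in tumors, from −0.41 to 0.16 for Aldh1a3 and −0.07 to 0.16 for Dhrs3 in non-tumor tissue, and in 2-week colon from −0.34 to 0.48 for Aldh1a3, −0.02 to 0.18 for Dhrs3, −0.90 to 0.02 for Dhrs9 and −0.04 to 0.12 for Rdh10. The interaction ran from −0.60 to 0.09 for Aldh1a2, −0.01 to 0.57 for Aldh1a3 and −0.76 to 0.20 for Stra6. Tumor against non-tumor tissue ran from −0.07 to 0.20 for Dhrs3 in BSHlow mice, and 12 against 2 weeks from −0.08 to 0.52 for Aldh1a2 in BSHlow and −1.06 to 0.49 for Dhrs9 in BSHhigh mice.

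Whether replicate numbers pair the libraries could not be settled from 4 pairs. The correlation of deviations of same-numbered libraries was −0.09 to 0.16 between BSHlow tumors and non-tumor tissue, with 2 of 4 pairs over 0.1. For 2 of the 4 tumors the non-tumor library of the same number had the highest correlation. With the replicate number as a block, 6 of 9 genes were called there in place of 7 (Aldh1a2 adjusted p = 0.0571), and between 12 and 2 weeks 6 in place of 5 in BSHlow and 4 in place of 5 in BSHhigh mice.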
